A study of Mus musculus with 16 samples.

Results

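The 10 genes examined here encode the mouse MHC class II antigen presentation apparatus: the classical chains H2-Aa, H2-Ab1 and H2-Eb1, the invariant chain Cd74, the transactivator Ciita, the peptide editor chains H2-DMa, H2-DMb1 and H2-DMb2, and the editor inhibitor chains H2-Oa and H2-Ob. They were matched by symbol among 53465 genes, and all 10 were found and passed the filter on low counts. RNA was sequenced from 16 MC38 tumors, a mouse colorectal carcinoma line, grown under the skin of female C57BL/6 mice aged 6 to 8 weeks. Mice whose tumors measured 150 to 250 mm3 on day 16 were assigned at random to 200 ug of control IgG (8 mice) or of an antibody to PD-1, aPD-1 (8 mice), on days 16 and 20, and tumors were taken on day 21. The aPD-1 tumors were divided by the study into 6 non-responders and 2 responders from staining for CD8 T cells, so this division followed treatment and was itself based on infiltrating T cells. Every tumor was 1 mouse and 1 library, made from 2 sections of 100 microns of a frozen tumor block that held part of the tumor. Expression is given as CPM, the counts of a gene scaled to the size of its library, with library sizes adjusted by TMM.

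MHC class II molecules present peptides from engulfed or membrane proteins to CD4 T cells, and are made by B cells, dendritic cells, macrophages and, under interferon gamma, many other cells. The alpha and beta chains assemble on the invariant chain, which fills the groove until proteases leave the fragment CLIP there. The H2-M dimer, an H2-DMa chain with an H2-DMb chain, then exchanges CLIP for other peptides, and the H2-O dimer of H2-Oa and H2-Ob binds H2-M and restrains it. H2-M is general to class II positive cells, whereas H2-O is best known from B cells, thymic epithelium and some dendritic cells. Ciita does not bind DNA itself. It joins a complex of RFX, CREB and NF-Y proteins on the X and Y boxes ahead of class II genes. The b haplotype of C57BL/6 mice lacks a working E alpha gene, so H2-Eb1 message is made without an E dimer on the cell surface.

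Of the 10 genes, 8 lay together on chromosome 17 (GRCm38, GENCODE annotation): H2-Oa from 34092340 to 34095234, H2-DMa from 34119541 to 34139101, H2-DMb2 from 34143307 to 34151555, H2-DMb1 from 34153072 to 34160230, H2-Ob from 34238903 to 34254414, H2-Ab1 from 34257689 to 34269419 and H2-Eb1 from 34305867 to 34316674 on the plus strand, and H2-Aa from 34282744 to 34287823 on the minus strand. Cd74 and Ciita lay on other chromosomes. H2-Oa and H2-Ob thus sit among the general class II genes, with H2-DMa and both H2-DMb genes between them.

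Promoter stretches are shown here for a classical alpha chain, a classical beta chain, the H2-M gene that differed most between groups and an H2-O gene. The stretches are RefSeq sequence (GRCm38.p6), read 5′ to 3′ on the gene's own strand, and capitals mark matches to AACNNATG, a core of the X box, and to TGATTGG, the Y box with its reversed CCAAT.
H2-Aa, chr17:34287852-34287923, minus strand: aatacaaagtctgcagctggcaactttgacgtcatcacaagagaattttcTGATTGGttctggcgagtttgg
H2-Eb1, chr17:34305756-34305827, plus strand: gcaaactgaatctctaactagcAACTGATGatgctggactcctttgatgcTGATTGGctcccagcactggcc
H2-DMb2, chr17:34145107-34145178, plus strand: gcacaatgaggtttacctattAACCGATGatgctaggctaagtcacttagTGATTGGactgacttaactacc
H2-Ob, chr17:34238796-34238867, plus strand: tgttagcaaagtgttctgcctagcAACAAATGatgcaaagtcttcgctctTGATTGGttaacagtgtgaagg
The RefSeq start of H2-DMb2 lies downstream of the first base of the GENCODE gene given above, so its stretch falls in an intron of the longest GENCODE transcript and ahead of the start of the shorter ones.
A promoter window of 250 bases before to 50 after the start was matched for 7 of the 10 genes, and H2-Ab1, Cd74 and Ciita had none. TGATTGG was found in the windows of 6 of the 7, H2-Aa, H2-Eb1, H2-DMb1, H2-DMb2, H2-Oa and H2-Ob. AACNNATG stood ahead of it in 4, with 20 bases between them in H2-Eb1, 21 in H2-DMb1 and H2-DMb2 and 18 in H2-Ob. H2-DMa held neither spelling, and H2-Aa and H2-Oa held TGATTGG alone. Among 32851 promoter windows searched on both strands, 8.86% held AACNNATG, 7.82% held TGATTGG, and 0.0396% (13) held them in this order with 15 to 30 bases between. The spellings were chosen after these promoters had been read, so the matches are a description. H2-Ob, of the B cell type, and the general genes H2-Eb1 and H2-DMb1 thus held the same pair of spellings.

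Libraries held 26603449 to 39948866 counts. The labelled cell type is a carcinoma, but 4 of its 5 epithelial markers were near absent from IgG control and non-responder tumors: Krt8, Krt18, Krt19 and Epcam were at 0 to 1.80 CPM in these 14 tumors, against 5.32 to 33.3 CPM in the responders. Cdh1, the fifth, was at 3.75 to 8.12 CPM in these tumors and at 9.78 and 8.55 CPM in the responders, and was not called. The 2 responder libraries stood apart from the other 14 in several marker lists. Summed expression of 10 B cell markers was 1484 and 386.1 CPM in responder replicates 15 and 16, against 2.14 to 9.50 CPM in the other tumors, and that of 6 markers of lymph node stroma was 422.7 and 130.5 CPM against 0.190 to 4.58 CPM. Summed T cell markers were 253.1 and 232.7 CPM against 8.27 to 35.9 CPM. All 8 genes were called higher in responders than in non-responders, where 12.5% of all genes tested were. Cd8a and Cd8b1 are among the 8, and the responders were designated from CD8 staining. Summed macrophage and monocyte markers, at 1790 and 1702 CPM, lay within the 1077 to 1811 CPM of the other tumors. The part of these differences in each class II result was not tested, and in bulk tissue fewer cells of a type cannot be told apart from less RNA per cell.

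Per kilobase of transcript, the order of levels in IgG control tumors (means of 8) was H2-Aa 233.4 CPM per kb, Cd74 222.4, H2-Ab1 124.3, H2-Eb1 121.2, H2-DMb1 35.3, H2-DMa 14.6, H2-DMb2 2.04, Ciita 1.14, H2-Oa 0.675 and H2-Ob 0.669. Neighbours in this order overlapped between tumors, with 3 exceptions. H2-Eb1, at 65.3 to 233.1 CPM per kb, lay above H2-DMb1. H2-DMb1, at 28.8 to 45.3 CPM per kb, did not overlap with H2-DMa, at 10.3 to 20.4, and H2-DMa did not overlap with H2-DMb2, at 1.41 to 2.88. Non-responders (means of 6) had the same order, down to H2-Oa and H2-Ob at 0.818 and 0.773 CPM per kb. In the responders (means of 2) H2-Aa at 671.7, Cd74 at 660.7, H2-Ab1 at 372.4 and H2-Eb1 at 328.4 CPM per kb still led, but H2-DMb2 at 49.5 and H2-Ob at 42.8 now stood beside H2-DMb1 at 54.3 and above H2-DMa at 36.4. H2-Oa reached 20.5 and Ciita 11.05 CPM per kb. H2-DMb1, H2-DMb2, H2-Ob and H2-DMa overlapped with their neighbours between the 2 responders.

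**Figure D1:**
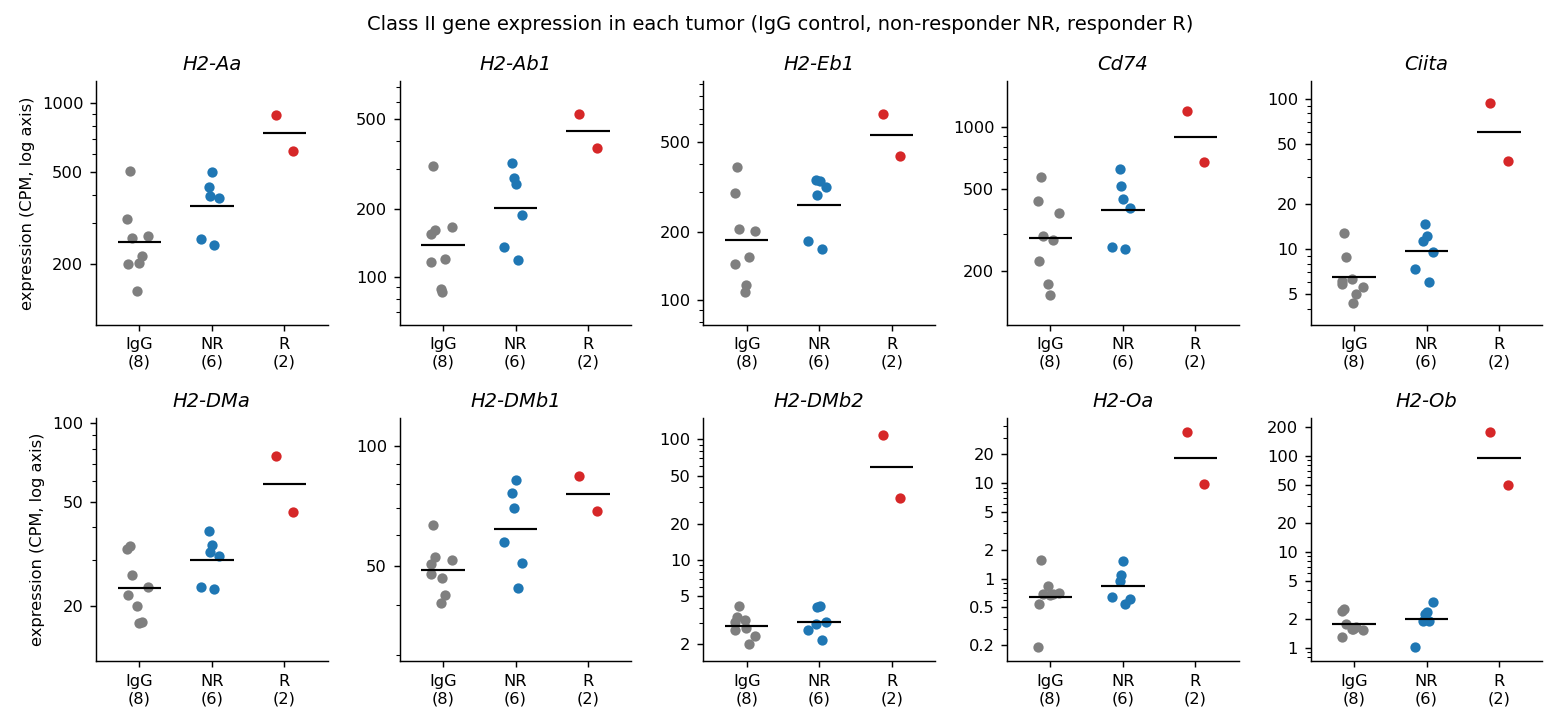
Expression of each class II gene in CPM on a log axis, with 1 point per tumor for IgG control (n = 8), non-responder (NR, n = 6) and responder (R, n = 2), and a line at the geometric mean. The responder points of H2-DMb2, H2-Oa and H2-Ob sit far above all others, those of Ciita clearly above, and those of H2-DMb1 reach into the non-responder range.

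The comparison of responders with non-responders asks which class II genes went with response within the treated mice. Of the 10 genes, 5 were called higher in responders (H2-Aa, Ciita, H2-DMb2, H2-Oa and H2-Ob) at an adjusted p under 0.05 and a log2 fold change above 1, and none was called lower; over all 18251 genes tested, 12.5% were called higher and 0.663% lower. On the adjusted p alone 6 passed, H2-DMa being added, where 15.4% of all genes were higher at that level. These p are from the quasi-likelihood test of edgeR, adjusted over all genes by the method of Benjamini and Hochberg. The median log2 fold change was 1.11 over the 10 genes and 0.019 over all genes. The log2 fold changes were near 1 for 5 genes and above 4 for 3, with Ciita between these groups at 2.71 and H2-DMb1 below both at 0.26. For 9 of the 10 genes, all but H2-DMb1, no non-responder reached the lower of the 2 responders, where 21.5% of all genes tested had this pattern.

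Among the classical chains, H2-Aa, the A alpha chain, measured 893.9 and 621.5 CPM in responder replicates 15 and 16, 240.3 to 501.8 CPM with a median of 390.5 in non-responders, and 151.4 to 508.6 CPM with a median of 236.5 in IgG controls. The responders lay above every other tumor. The log2 fold change against non-responders was 1.04 (SE 0.35, edgeR adjusted p = 0.043), a call close to the threshold that was lost without either responder. Without replicate 15 it was 0.68 (adjusted p = 0.53) and without replicate 16 it was 1.23 (adjusted p = 0.068). H2-Ab1, the partner A beta chain, measured 529.0 and 373.7 CPM in responders, 118.3 to 321.7 CPM with a median of 223.1 in non-responders and 85.9 to 310.5 CPM with a median of 138.0 in IgG controls. Its log2 fold change against non-responders, 1.06 (SE 0.41, edgeR adjusted p = 0.082), was as large as that of H2-Aa but not called. H2-Eb1, the E beta chain, measured 663.5 and 432.6 CPM in responders, 168.3 to 338.2 CPM with a median of 303.7 in non-responders and 109.0 to 389.0 CPM with a median of 179.1 in IgG controls, and its log2 fold change of 1.01 (SE 0.40, edgeR adjusted p = 0.088) was not called either. The responders did not overlap with either other group for any of these 3 genes, although the calls differed. In the exact permutation test over tumors (two-sided, 28 assignments, smallest possible p = 0.036), p was 0.036 for H2-Aa and 0.071 for H2-Ab1 and H2-Eb1.

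Cd74, the invariant chain, measured 1190 and 673.7 CPM in responders, 255.2 to 624.9 CPM with a median of 424.6 in non-responders, and 153.0 to 571.2 CPM with a median of 286.9 in IgG controls. The lower responder stood only just above the highest non-responder, and the log2 fold change of 1.16 (SE 0.42, edgeR adjusted p = 0.062) was not called. DESeq2 called it (log2 fold change 1.16, adjusted p = 0.040), and so did the edgeR fit of the 2 groups alone (1.12, adjusted p = 0.039). Cd74 lies on chromosome 18 from 60803848 to 60812652 and Ciita on chromosome 16 from 10480059 to 10528418, both on the plus strand. Ciita, which sets class II transcription, measured 93.9 and 38.8 CPM in responders, 6.06 to 14.6 CPM with a median of 10.4 in non-responders, and 4.39 to 12.8 CPM with a median of 5.95 in IgG controls. Both responders were well above the highest of the other tumors. The log2 fold change of Ciita was 2.71 (SE 0.36, edgeR adjusted p = 3.7e-05), larger than that of any classical chain or of Cd74, and it was 1.86 (adjusted p = 0.012) without replicate 15 and 3.16 (adjusted p = 2.6e-05) without replicate 16.

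The 3 H2-M genes differed from each other. H2-DMa, the alpha chain, measured 75.0 and 45.7 CPM in responders, 23.1 to 38.6 CPM with a median of 31.5 in non-responders and 17.1 to 33.8 CPM with a median of 22.8 in IgG controls. Its log2 fold change of 0.99 (SE 0.26, edgeR adjusted p = 0.012) passed the p threshold and missed the fold threshold. H2-DMb1, a beta chain, measured 83.9 and 68.6 CPM in responders, 44.2 to 82.1 CPM with a median of 63.8 in non-responders and 40.5 to 63.5 CPM with a median of 49.2 in IgG controls. Replicate 16 lay below the highest non-responders, and the log2 fold change was 0.26 (SE 0.21, edgeR adjusted p = 0.43). H2-DMb2, the other beta chain, measured 108.2 and 32.8 CPM in responders, 2.17 to 4.10 CPM with a median of 2.98 in non-responders and 2.01 to 4.10 CPM with a median of 2.87 in IgG controls. The responders were far above both other groups, with a log2 fold change against non-responders of 4.48 (SE 0.32, edgeR adjusted p = 6.4e-08), or 22.3-fold.

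The beta chain of the H2-M dimer can come from either H2-DMb gene, so their balance was read directly. H2-DMb2 made up 4.28% to 7.23% of the counts of both genes in IgG controls and 3.71% to 5.61% in non-responders. In the responders it made up 56.3% (95% Wilson interval 55.1% to 57.5%) in replicate 15 and 32.3% (30.8% to 33.9%) in replicate 16, intervals that cover counting error only. The transcripts of these genes were 93.9% identical over 1255 aligned bases, and 5.74% of the 150-base windows of H2-DMb1 also occurred in another of the class II genes. The deposited values of both H2-DMb genes were fractional in all 16 tumors and those of the other 8 genes in none, so reads were divided between the pair by estimation and the split is less certain than the sum. Summed to 1 gene, the pair had a log2 fold change of 1.14 (SE 0.23, edgeR adjusted p = 0.0016) in responders against non-responders.

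The H2-O genes were almost silent outside the responders. H2-Oa, the alpha chain, measured 34.6 and 9.90 CPM in responders (1171 and 352 counts), 0.542 to 1.52 CPM with a median of 0.794 in non-responders (16 to 60 counts) and 0.190 to 1.55 CPM with a median of 0.687 in IgG controls (5 to 56 counts). The change relative to non-responders was 4.63 on the log2 scale (SE 0.49, edgeR adjusted p = 3.8e-06), or 24.8-fold. H2-Ob, the beta chain, measured 178.6 and 50.2 CPM in responders, 1.00 to 2.99 CPM with a median of 2.08 in non-responders and 1.29 to 2.49 CPM with a median of 1.60 in IgG controls. With 5.79 (SE 0.36, edgeR adjusted p = 1.7e-08), or 55.3-fold, it had the largest log2 fold change of the 10 genes. Without replicate 15 the log2 fold changes were 3.40 for H2-Oa (adjusted p = 0.00088), 4.53 for H2-Ob (9.5e-07) and 3.31 for H2-DMb2 (3.1e-06). These 3 genes and Ciita were called in all 16 fits that left out 1 tumor. In such a fit the lone remaining responder is assumed to vary like the other groups.

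**Figure D2:**
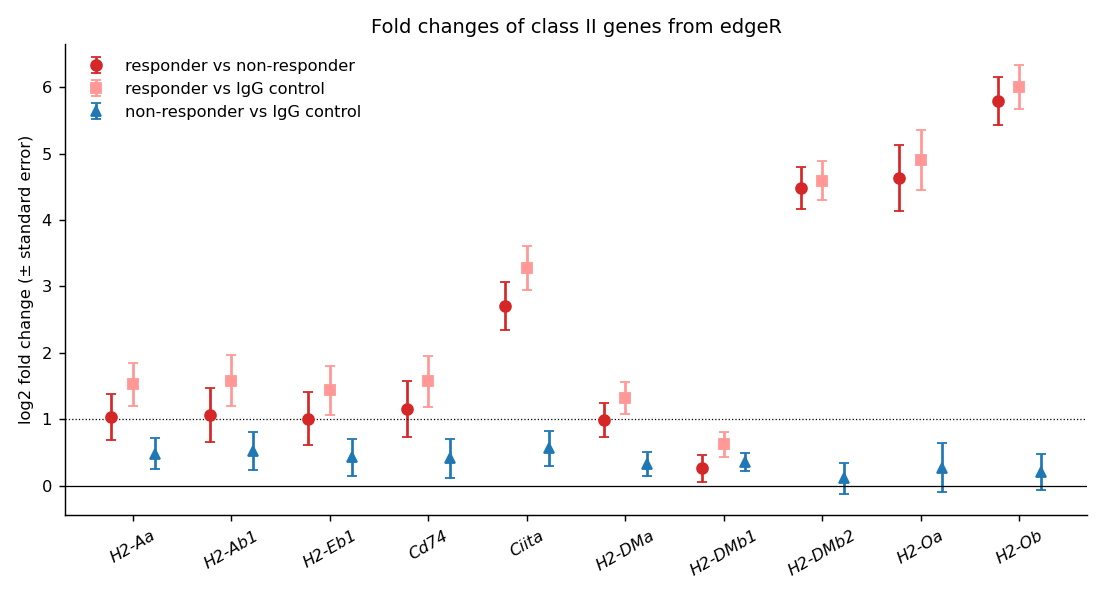
Log2 fold changes (points) with standard errors (bars) of the class II genes from edgeR, for responders against non-responders, responders against IgG controls and non-responders against IgG controls; the dotted line marks a log2 fold change of 1. H2-DMb2, H2-Oa and H2-Ob lie between 4.48 and 6.00 in both responder comparisons, and the values of non-responders against IgG controls lie between 0.11 and 0.57.

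Against IgG controls, 9 of the 10 genes were called higher in responders, all but H2-DMb1, where 14.3% of all genes tested were called higher, and all 10 passed on the adjusted p alone, where 17.7% of all genes were higher. This comparison uses the same 2 responders as the one above, so the results are not independent. The log2 fold changes were 1.52 for H2-Aa, 1.58 for H2-Ab1, 1.44 for H2-Eb1, 1.57 for Cd74 and 1.32 for H2-DMa, with SE of 0.24 to 0.39 and edgeR adjusted p of 0.00069 to 0.0088. Ciita had 3.27 (SE 0.33), H2-DMb2 4.59 (SE 0.29), H2-Oa 4.91 (SE 0.45) and H2-Ob 6.00 (SE 0.33). H2-DMb1 had 0.62 (SE 0.19, edgeR adjusted p = 0.027), under the fold threshold. The median over the 10 genes was 1.58 and over all genes -0.021. Both responders lay above all 8 IgG controls for all 10 genes, a pattern shown by 19.3% of all genes. Without replicate 15 the log2 fold changes were lower: 2.43 for Ciita, 3.42 for H2-DMb2, 3.67 for H2-Oa and 4.74 for H2-Ob. Those of the classical chains were then 1.02 to 1.24, that of Cd74 was 1.03, and that of H2-DMa was 0.85, under the fold threshold. With 1 responder left, such a fit cannot show whether the calls hold.

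Non-responders and IgG controls were compared to see whether treatment without response went with class II expression. No class II gene was called by edgeR, as was the case for all 18251 genes (0% called higher), and every adjusted p was 0.99. All 10 log2 fold changes were above 0, from 0.11 for H2-DMb2 to 0.57 for Ciita, with a median of 0.39 against -0.006 over all genes. Of the 10, 2 had an unadjusted p under 0.05, Ciita (0.57, SE 0.26, unadjusted p = 0.046 from edgeR) and H2-DMb1 (0.36, SE 0.14, unadjusted p = 0.018 from edgeR), where 2.56% of all genes were higher at that level. DESeq2 called no class II gene and gave 3 an unadjusted p under 0.05, as it did 787 of all 18251 genes, higher or lower. The median of the classical chains was 0.49, while H2-Oa and H2-Ob had 0.27 (SE 0.37) and 0.21 (SE 0.27). IgG control replicate 8 held the highest control value of 9 of the 10 genes, all but H2-DMb2. Without it 7 of the 10 genes had an unadjusted p under 0.05 from edgeR, none of them called. In that fit 769 of all 18235 genes, higher or lower, had such a p. The median log2 fold change of the 10 was then 0.56.

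With all 8 aPD-1 tumors set against the 8 IgG controls, the comparison that treatment was randomized for, no gene was called by edgeR (0% of 15775 tested). All 10 class II genes had an unadjusted p under 0.05 and were higher, where 9.18% of all genes were. Their edgeR adjusted p ran from 0.22 to 0.35. The largest log2 fold changes, 4.10 (SE 1.08) for H2-Ob, 3.10 (SE 0.89) for H2-Oa and 2.80 (SE 0.82) for H2-DMb2, had the largest errors, since the 2 responders and 6 non-responders were pooled. The smallest error was that of H2-DMb1, at 0.44 (SE 0.13). Without responder replicate 15 the log2 fold changes were 2.31 for H2-Ob, 1.55 for H2-Oa and 1.34 for H2-DMb2, and that of Ciita was 1.05 in place of 1.84. DESeq2 called Ciita (log2 fold change 1.83, adjusted p = 0.036) and no other class II gene. It replaced the count of replicate 15 as an outlier for H2-Ob, H2-Oa and H2-DMb2 and gave them 2.17, 1.45 and 1.23.

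Whether the B cell type genes changed by more than the general ones was tested on their ratio within each tumor, as log2 of CPM over CPM. The log2 ratio of H2-Oa to H2-DMa was -1.12 and -2.20 in the responders, -5.63 to -4.47 in non-responders and -7.31 to -4.44 in IgG controls. The ratio of H2-Ob to H2-DMb1 was 1.09 and -0.45 in responders, so that in replicate 15 H2-Ob exceeded H2-DMb1 in CPM, and -5.82 to -4.08 and -5.19 to -4.37 in the other groups. The responders exceeded the non-responders by 3.48 for H2-Oa over H2-DMa, 5.29 for H2-Ob over H2-DMb1, 3.39 for H2-Oa over H2-Aa and 4.45 for H2-Ob over H2-Ab1. All 4 differences had an exact permutation p of 0.036, the smallest that 28 assignments allow, and 0.036 after adjustment over the 4. Against IgG controls they were 3.48, 5.12, 3.21 and 4.07, each with an exact permutation p of 0.022, the smallest that 45 assignments allow. Between non-responders and IgG controls the same ratios differed by -0.37 to -0.00080, with exact permutation p of 0.19 to 0.999. The responders' H2-Oa message thus rose against H2-DMa and H2-Aa, and their H2-Ob message against H2-DMb1 and H2-Ab1. No such difference was detected without response. H2-DMb2, also an H2-M gene, was not used in these ratios. By edgeR it stood 4.48 higher in responders than in non-responders on the log2 scale, near H2-Oa at 4.63 and below H2-Ob at 5.79. Whether H2-O message rose against H2-DMb2 was not tested.

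**Figure D3:**
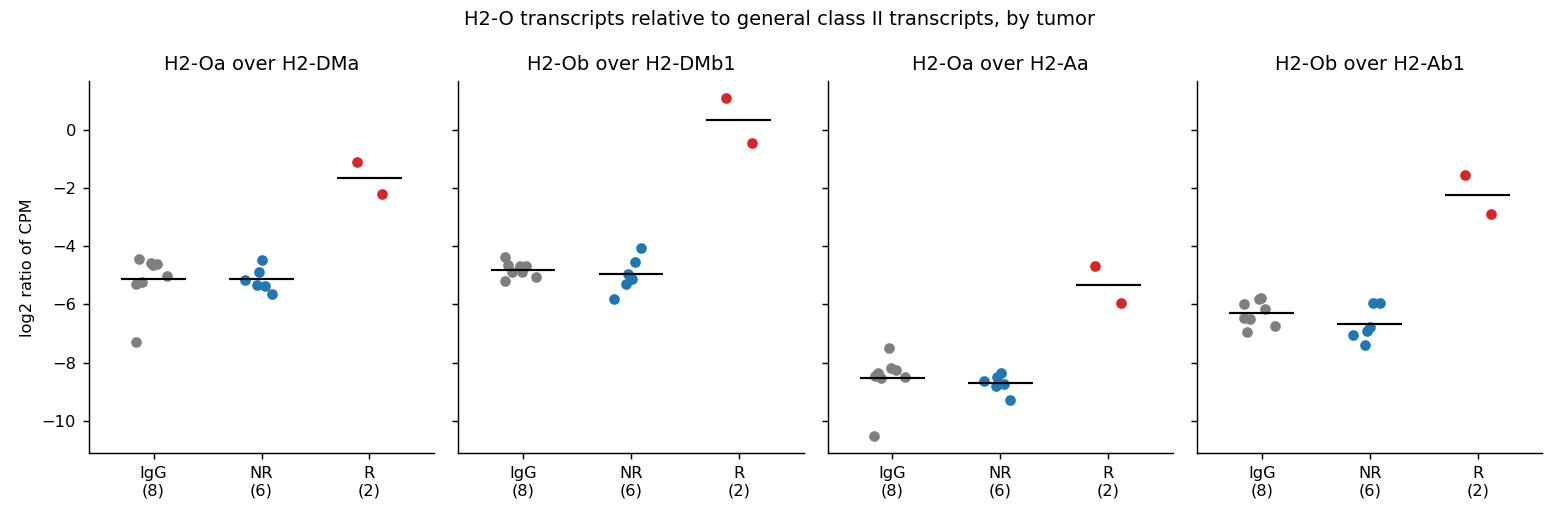
Log2 ratios of an H2-O gene to a general class II gene, with 1 point per tumor and a line at the group mean, for IgG control (n = 8), non-responder (NR, n = 6) and responder (R, n = 2). In each panel both responders lie above all other tumors, and the 2 low IgG points of the H2-Oa panels are replicate 1, where H2-Oa had 5 counts.

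The 2 responders also differed from each other. All 10 class II genes were higher in replicate 15 than in replicate 16, but by different amounts: 3.56-fold for H2-Ob, 3.50-fold for H2-Oa, 3.30-fold for H2-DMb2 and 2.42-fold for Ciita, against 1.77-fold for Cd74, 1.64-fold for H2-DMa, 1.53-fold for H2-Eb1, 1.44-fold for H2-Aa, 1.42-fold for H2-Ab1 and 1.22-fold for H2-DMb1. The 3 genes that differed most between the groups were also those that differed most between the responders. Summed B cell markers were 3.84-fold and summed lymph node stroma markers 3.24-fold higher in replicate 15, while summed T cell markers were 1.09-fold, dendritic cell markers 1.17-fold and macrophage markers 1.05-fold higher. Ifng, which encodes interferon gamma, went the other way, with 2.01 CPM in replicate 15 and 7.40 CPM in replicate 16. This sets 1 tumor against 1 tumor and has no test.

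**Figure D4:**
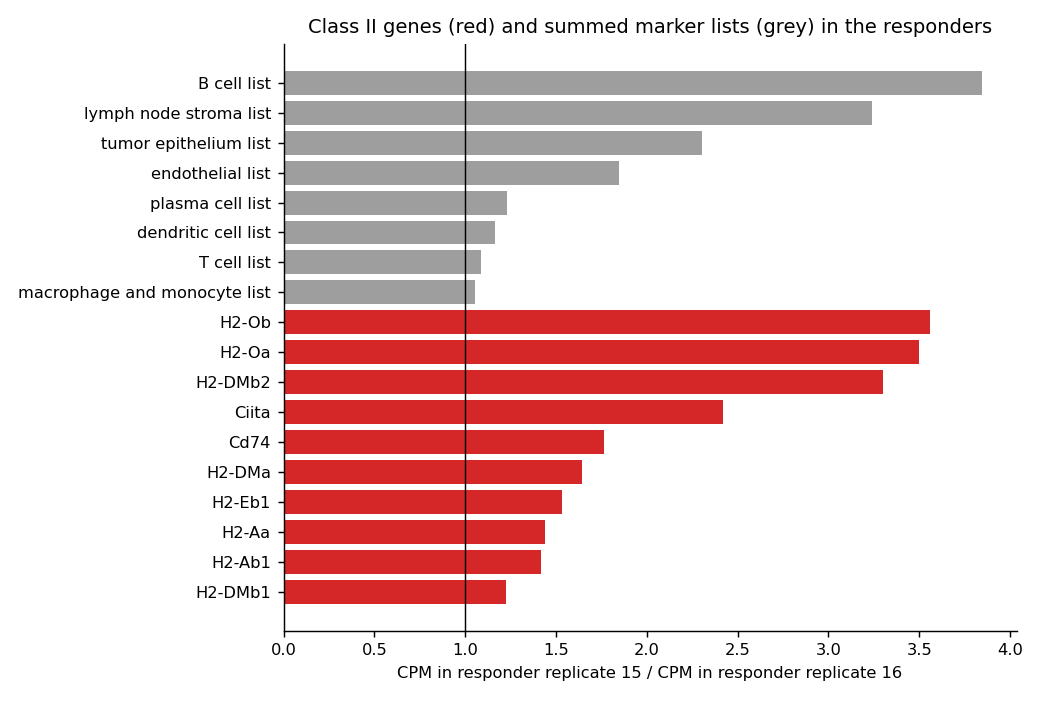
Ratio of CPM in responder replicate 15 to CPM in responder replicate 16 for the class II genes (red) and for summed marker lists (grey), 1 tumor each and with no error estimate; the line marks a ratio of 1. H2-DMb2, H2-Oa and H2-Ob lie at 3.30 to 3.56, near the B cell list at 3.84 and the lymph node stroma list at 3.24.

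Other class II genes of the locus were read beside the 10. H2-Eb2, a beta chain gene next to H2-Eb1, measured 30.9 and 10.7 CPM in the responders and 0 to 0.258 CPM in the other 14 tumors, with a log2 fold change of 7.30 (SE 0.58, edgeR adjusted p = 2.4e-07) against non-responders that rests on 1 to 9 counts per non-responder. The E alpha pseudogene H2-Ea-ps had 0 counts in all 16 tumors, which allows up to 0.114 CPM in a library.

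The DNA-binding partners of Ciita had smaller changes than Ciita itself. None of 8 genes of the enhanceosome and its relatives was called in responders against non-responders, and their median log2 fold change was 0.11. With 8 genes, this count is near the 12.5% of all genes tested that were called higher. Rfx5, the DNA-binding RFX subunit, measured 49.96 and 35.6 CPM in responders and 22.7 to 36.6 CPM in non-responders, with a log2 fold change of 0.51 (SE 0.15, edgeR adjusted p = 0.023), and was the sole member to pass the p threshold. Creb1, which binds beside RFX, had 0.40 (SE 0.20, edgeR adjusted p = 0.20). Of 9 genes of the interferon gamma route, none was called, and 3 passed the p threshold, Jak1 (0.92), Jak2 (0.59) and Ifngr1 (0.34), where 15.4% of all genes tested were higher at that level. Ifng itself had a log2 fold change of 1.23 (SE 0.60, edgeR adjusted p = 0.17) against non-responders and 2.44 (SE 0.55, edgeR adjusted p = 0.0033) against IgG controls.

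Of 7 lineage regulators of Ciita, 5 were called higher in responders than in non-responders, where 12.5% of all genes tested were. Pax5, the factor that defines B cells, measured 117.7 and 28.7 CPM in responders and 0.288 to 0.915 CPM in non-responders (log2 fold change 6.86, SE 0.53, edgeR adjusted p = 1.5e-07). Spib, a B cell and plasmacytoid dendritic cell factor, had 3.87 (SE 0.49, edgeR adjusted p = 2.5e-05), Irf4 4.47, Irf8 1.37 and Ebf1 1.18. Spi1, the myeloid factor PU.1, had 0.40 (edgeR adjusted p = 0.25), and Prdm1, which represses Ciita in plasma cells, had -0.25 (edgeR adjusted p = 0.69). Pax5 also belongs to the B cell list given above.

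Of 10 genes for antigen processing and class II turnover, 2 were called higher in responders, a share near the 12.5% of all genes tested, and the median log2 fold change of the 10 was 0.35. Cd83, which keeps class II on the surface against ubiquitination, measured 68.1 and 26.4 CPM in responders and 10.01 to 14.1 CPM in non-responders (2.03, SE 0.27, edgeR adjusted p = 3.2e-05). March1, the ubiquitin ligase that sends class II to degradation, measured 64.0 and 43.0 CPM in responders and 12.7 to 23.8 CPM in non-responders (1.56, SE 0.26, edgeR adjusted p = 0.00040). Both sides of this opposed pair were thus higher. Ctss, the protease that trims the invariant chain in B cells and dendritic cells, had 0.31 (edgeR adjusted p = 0.50), and Ctsl, its counterpart in thymic epithelium, -0.46 (edgeR adjusted p = 0.12). On the CD4 T cell side, 3 of 6 genes were called higher, against the same 12.5% of all genes: Cd4, the class II coreceptor, at 44.8 and 35.4 CPM in responders and 0.881 to 2.996 CPM in non-responders (4.35, SE 0.36, edgeR adjusted p = 3.1e-07), Cd28 (3.55) and Cd40 (1.36). Cd80 and Cd86, which engage CD28 on T cells, had 0.84 and 0.60 with edgeR adjusted p of 0.15 and 0.082.

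Among the other marker lists, 7 of 10 dendritic cell markers were called higher in responders than in non-responders, with the largest log2 fold changes for Siglech (4.56), Ccr7 (3.42) and Flt3 (3.22), while Itgax had -0.28 and Fscn1 0.01. Of 10 macrophage and monocyte markers 2 were called, Ly6c2 (2.48) and Mrc1 (1.65), and C1qa, C1qb and C1qc had -0.02 to -0.08. All 10 B cell markers and all 6 lymph node stroma markers were called higher, as were 3 of 5 plasma cell, 3 of 6 endothelial and 4 of 5 epithelial markers. None of these 8 lists held a gene called lower. Blk of the B cell list and Chst4, Ccl19 and Madcam1 of the stroma list had at most 13 counts in any tumor outside the responders. These genes passed the filter on low counts through the responders, so a call of lower was not open to them. Among marker lists with cells that carry class II, those of B cells and dendritic cells had 10 of 10 and 7 of 10 genes called and that of macrophages 2 of 10, where 12.5% of all genes were called.

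How the class II genes varied without response was followed over the 14 IgG control and non-responder tumors, leaving out the responders as a separate cluster. Ciita went with H2-Aa (Pearson r = 0.83, permutation p = 0.00044, adjusted over 10 relations 0.0028; Spearman rho = 0.71, permutation p = 0.0054), with H2-DMa (r = 0.82, adjusted permutation p = 0.0028; rho = 0.74, permutation p = 0.0034) and with Cd74 (r = 0.76, adjusted permutation p = 0.0075; rho = 0.69, permutation p = 0.0080). Without the 2 tumors farthest from the median of Ciita, IgG control replicate 8 and non-responder replicate 13, r was 0.79, 0.81 and 0.67. Within the groups the relations of Ciita with H2-DMa and with Cd74 did not pass (adjusted permutation p = 0.24 over IgG controls and 0.097 over non-responders). Without the 2 farthest tumors, r was 0.54 for H2-DMa and 0.27 for Cd74 over IgG controls. Over non-responders it was 0.013 and 0.39. The relation of Ciita with H2-Aa did not pass after adjustment within the groups either. Over 8 IgG controls r was 0.71 (adjusted permutation p = 0.24; rho = 0.24) and rested on replicates 8 and 2, without which it was -0.092. Over 6 non-responders r was 0.87 (adjusted permutation p = 0.097; rho = 0.83) and rested on replicates 14 and 10, without which it was 0.13. The relation of Ciita with H2-Oa was weaker (r = 0.63, adjusted permutation p = 0.021, and rho = 0.59, adjusted permutation p = 0.062). It fell to r = 0.50 without IgG control replicate 8 and non-responder replicate 13, on which it therefore leans. That of Ciita with H2-Ob (r = 0.53, adjusted permutation p = 0.086; rho = 0.54) did not pass. Ifng went with Ciita (r = 0.74, adjusted permutation p = 0.010; rho = 0.73, permutation p = 0.0040), with r = 0.65 without the 2 farthest tumors. Within IgG controls r of Ifng with Ciita was 0.58 (rho = 0.36), or 0.21 without replicates 8 and 1, and within non-responders 0.64 (rho = 0.77), with adjusted permutation p of 0.24 in each.

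None of the 4 relations of class II genes with markers of the cells that could carry them passed over these 14 tumors, and whether they differed from those of Ciita was not tested. Flt3, a dendritic cell receptor, had r = 0.29 with H2-Aa (adjusted permutation p = 0.38; rho = 0.41), and Csf1r, a macrophage receptor, had r = 0.11 (adjusted permutation p = 0.72; rho = 0.20). Within the 6 non-responders r with H2-Aa was 0.74 for Flt3 (adjusted permutation p = 0.0995; rho = 0.83) and 0.51 for Csf1r (adjusted permutation p = 0.37; rho = 0.71), and within the 8 IgG controls -0.025 and -0.0051. Cd79a, part of the B cell receptor, had r = 0.19 with H2-Oa (adjusted permutation p = 0.56; rho = 0.20) and r = 0.48 with H2-Ob (adjusted permutation p = 0.12; rho = 0.49). Cd79a had 0 to 28 counts in each of these 14 tumors. Within the 6 non-responders Cd79a and H2-Ob had r = 0.87 (adjusted permutation p = 0.028; rho = 0.94, adjusted permutation p = 0.12), and within the 8 IgG controls r = 0.37 (adjusted permutation p = 0.53); the difference between these was not tested.

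**Figure D5:**
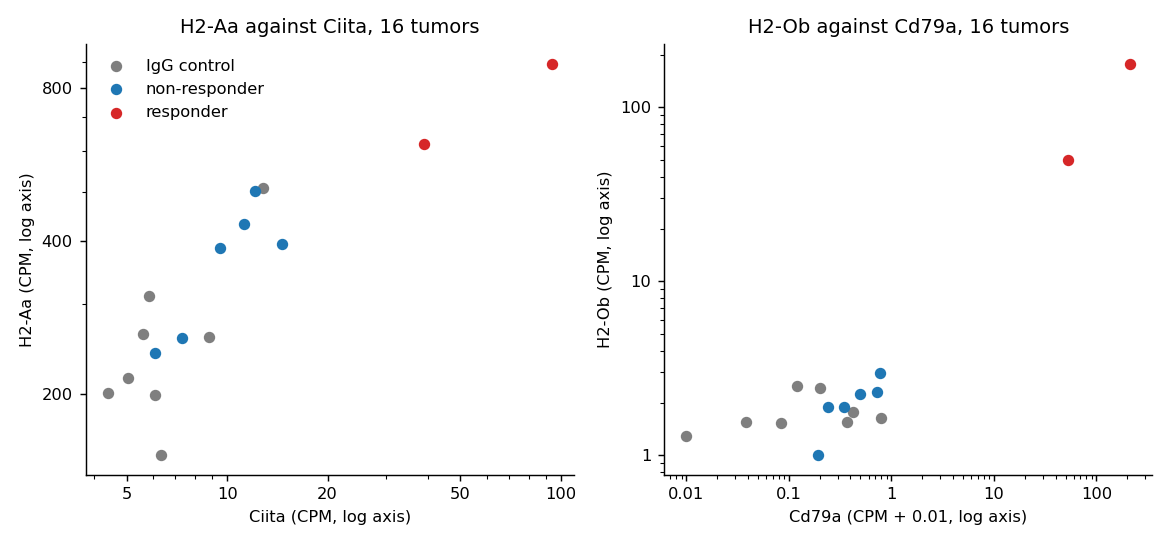
Expression in CPM on log axes of H2-Aa against Ciita (left) and H2-Ob against Cd79a (right, with 0.01 CPM added to Cd79a), with 1 point for each of the 16 tumors. Among the 14 grey and blue points H2-Aa follows Ciita (r = 0.83), while H2-Ob stays between 1.00 and 2.99 CPM; the responders (red) lie beyond both clouds.

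Pairs of class II genes over the same 14 tumors fell into sets, given as a description since all pairs share libraries. H2-Aa, H2-Ab1, H2-Eb1, Cd74, Ciita, H2-DMa and H2-DMb1 had r of 0.76 to 0.97 with each other, the closest pair being H2-Aa and H2-Eb1. H2-DMb2 stood outside this set, with r from 0.31 (Cd74) to 0.75 (Ciita) with its genes. It had r = 0.49 with H2-Oa and 0.34 with H2-Ob. H2-Oa and H2-Ob had r = 0.12 with each other, although their chains form 1 dimer. H2-Ob had r = 0.57 to 0.72 with the classical chains and H2-Oa 0.27 to 0.51. These levels rest on 5 to 60 counts of H2-Oa and 33 to 98 counts of H2-Ob. Of 13587 genes averaging at least 1 CPM, the 5 whose pattern was most like that of H2-Aa were Cd8a (r = 0.92), Nkg7 (0.91), Cd3g (0.91), Slc31a2 (0.91) and Gbp2b (0.91). Those most like Ciita were Cd247 (0.90), Tbc1d10c (0.90), Ms4a4b (0.89), Il18rap (0.87) and Slc31a2 (0.86). Those most like H2-Ob were Ifi203 (0.85), Afap1l2 (0.85), Fam161b (0.85), Il10ra (0.83) and Ifi207 (0.82). All were picked as the highest r among 13587 genes over 14 tumors, so these r have no test and are raised by the picking. Cd8a and Cd3g are T cell genes and Cd247 a signaling chain of the T cell receptor, and at 1.94 to 11.47 CPM for Cd8a its level was low in these tumors.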

How the data were processed

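Bulk poly(A) RNA from 16 tumors was sequenced with a strand-specific kit. Per the labels, the authors aligned reads with STAR 2.6 and estimated expression with RSEM 1.3.0 on GRCm38, and the study's methods name Ensembl 91. The authors deposited these as estimated counts per gene (RSEM expected counts), not normalized, of which 7.84% were fractional; they were rounded here. The 92 spike-in rows (at most 185 counts in a tumor) were left out. Gene names and loci came from GENCODE mouse release 21 (53274 of 53465 IDs matched). Members and lists were chosen with earlier results of these data known.

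Genes were filtered with filterByExpr over the 3 groups and tested with edgeR 4.0.16 (TMM, robust quasi-likelihood, 1 fit of 16 tumors; a 2-group fit for all aPD-1 tumors), adjusted over all genes tested; DESeq2 1.42.0, R 4.3.3. CPM used TMM library sizes. Ratios and correlations used log2 CPM with a prior count of 0.5; correlations had 100000 permutations. Exact permutation tests were two-sided (scipy 1.17.1). The fit was tested on simulated data. Library totals of 26603449 to 39948866 limit precision by counting error mainly for H2-Oa and H2-Ob. Genes named are all 10 members, for each list the 2 of smallest p and genes counted singly, the 10 relations, and the 5 nearest patterns; other genes of the lists were named after their values were seen. No batch is given in the labels. Alternatives were DESeq2, median-of-ratios size factors, no filter, at least 10 counts in 8 tumors, the 2 groups alone, a prior count of 2, H2-DMb1 and H2-DMb2 summed, and leaving out each tumor.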

Additional observations from a re-analysis of the deposited data

Results flagged for a closer look

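Single tumors that stood apart within their group were looked for with Dixon's test, in 28 sets of values, of which chance alone would mark about 1 in 20; 5 were marked, all in IgG controls. IgG control replicate 8 was high in H2-Aa at 508.6 CPM, with the next control at 311.4 CPM. The same tumor was high in H2-Ab1 at 310.5 CPM, with the next at 166.3 CPM, and in H2-Oa at 1.55 CPM, with the next at 0.830 CPM. Without it, 8 class II genes in place of 5 were called higher in responders than in non-responders. IgG control replicate 1 was low in the log2 ratio of H2-Oa to H2-DMa at -7.31, with the next at -5.29, and in that of H2-Oa to H2-Aa at -10.5, with the next at -8.53. H2-Oa had 5 counts in that library, the shallowest of the 16, and was at 0.190 CPM, a value already scaled for depth. Without this tumor, 3219 of 18104 genes had an unadjusted p under 0.05 from edgeR in non-responders against IgG controls, higher or lower. With it 694 of 18251 had. Of the 10 class II genes, 2 had such a p in both fits.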

How the results depend on the processing

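No paired analysis was possible because the tumors of the 3 groups carry no shared replicate numbers. Against non-responders, Ciita, H2-DMb2, H2-Oa and H2-Ob were called in each fit that left out 1 tumor, and the number of class II genes called ran from 4 to 8; H2-Aa was called in 8 of 16 such fits. The number was 8 without IgG control replicate 8, 7 without non-responder replicate 11 and 4 to 6 under the other alternatives, and H2-DMb1 summed with H2-DMb2 had a log2 fold change of 1.14. Against IgG controls it was 9 in each fit that kept both responders. Without responder replicate 15 the log2 fold changes in that comparison were lower, such as 1.03 in place of 1.57 for Cd74. That of H2-DMa was 0.85 in place of 1.32, under the fold threshold. The calls against IgG controls thus lean on that tumor. No class II gene was called in non-responders against IgG controls under any alternative run. For all aPD-1 tumors DESeq2 called 1, and leaving out 1 tumor left 0, with log2 fold changes of 2.31 to 4.28 for H2-Ob, 1.55 to 3.34 for H2-Oa and 1.34 to 2.97 for H2-DMb2. Without 1 responder the exact permutation tests of the ratios cannot pass the threshold and say nothing there; over fits without 1 tumor the differences ranged, against non-responders and against IgG controls in turn, from 2.94 to 4.02 and 2.94 to 4.02 (H2-Oa over H2-DMa), 4.52 to 6.06 and 4.35 to 5.89 (H2-Ob over H2-DMb1), 2.75 to 4.03 and 2.57 to 3.85 (H2-Oa over H2-Aa), and 3.78 to 5.11 and 3.41 to 4.74 (H2-Ob over H2-Ab1). With H2-DMb1 and H2-DMb2 summed, H2-Ob over that sum differed by 4.48 against non-responders and 4.33 against IgG controls. Both lie below the ranges of H2-Ob over H2-DMb1. Between non-responders and IgG controls the near-zero H2-Oa over H2-DMa ran from -0.31 to 0.100 and H2-Ob over H2-DMb1 from -0.34 to 0.0030. Of the 10 relations, 5 passed the adjusted permutation threshold, 4 to 6 without 1 tumor, 0 within IgG controls and 1 within non-responders; r changed sign for Flt3 with H2-Aa (-0.0253) and Csf1r with H2-Aa (-0.0051) within IgG controls, and for the latter ran from -0.0331 (without IgG control replicate 8) to 0.257 in fits without 1 tumor. Only 2 responders, designated from CD8 staining, carry every responder value, and the low counts of H2-Oa (5 to 60) limit what could be seen outside them. The cause of these changes was not tested.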
